A study of Mus musculus with 6 samples.

Results

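Opposite-strand noncoding transcripts are RNAs named after a protein-coding gene because they are read from the other strand at or near it. They were compared with those partner genes in cultured fibroblasts from C57BL/6 mouse embryos. Total RNA had been sequenced from 3 libraries labelled NGLY1-/- and 3 labelled WT. The medium of both groups was rich in glucose and held serum, and nothing else was applied. Which stretch of Ngly1 was deleted is not in the labels, nor whether the libraries of a group came from separate embryos or dishes, so the p-values rest on a spread among samples that could be technical. Members were the rows of the deposited count table typed as noncoding RNA whose symbol ends in "os" or in "os" plus 1 digit, with at least 60 counts summed over the 6 libraries. Of 86 such symbols among 23842 genes, 34 met the minimum and 52 did not. The sum runs over both genotypes, and the choice was made with earlier results of these data known. Bloc1s6os, with 71 counts, was the member nearest the minimum, followed by Atad3aos and Rbm3os with 81 each, while Appbp2os with 56 and Runx2os2 with 55 lay just outside. Bloc1s6os had under 30 counts over the wild-type-labelled libraries, and Rbm3os under 30 over the knockout-labelled ones.

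Such transcripts arise in several ways. Many start back to back with a coding gene and share its promoter region, others begin inside the coding gene and run across it, and others end close to its far end. A few are precursors of small RNAs or are known to act on the gene beside them, but for most no function is established. The strand setting used in counting is not given in the sources used here. Where the annotated ranges of a transcript and its partner overlap, it is therefore not known whether reads of one were told apart from reads of the other.

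Total counts were 33007239 to 37841558 in the knockout-labelled libraries and 27323577 to 37790710 in the wild-type-labelled libraries. Pearson correlations of log2(CPM + 1) across tested genes, which are not independent replicates, were 0.994 to 0.997 among knockout-labelled libraries. Wild-type replicates 1 and 2 correlated at 0.997, and each correlated with wild-type replicate 3 at 0.988 or less. CPM is the count normalised to the library total after TMM scaling of that total. Ngly1 had 18.2, 12.8 and 12.9 CPM in the knockout-labelled libraries and 16.4, 16.2 and 11.2 CPM in the wild-type-labelled libraries (log2 fold change -0.00, adjusted p = 0.99 in edgeR's quasi-likelihood test). Ngly1 therefore does not check the labels, and every direction rests on them. The 8 fibroblast markers summed to 10464 to 11699 CPM in the knockout-labelled libraries and 7281 to 8149 CPM in the wild-type-labelled libraries, and 0 of them was at 0 throughout. That sum is carried by Fn1, which averaged 7148 ± 529 CPM in the knockout-labelled libraries and 2091 ± 245 CPM in the wild-type-labelled libraries (SD, n = 3 each). Of the other 7 markers, 5 were lower, namely Vim, Thy1, Pdgfra, Pdgfrb and Col1a2, and Col1a1 and Col3a1 did not pass. Vim averaged 677 ± 42.4 CPM in the knockout-labelled libraries and 1740 ± 230 CPM in the wild-type-labelled libraries, and Thy1 1.25 ± 0.262 CPM and 3.90 ± 0.462 CPM in those groups. Epithelial, endothelial, macrophage and germ cell lists each stayed under 4 CPM in every library. The count table held 4 of the 6 epithelial, 4 of the 4 endothelial, 4 of the 5 macrophage and 3 of the 4 germ cell markers listed. The 4 smooth muscle markers summed to 219 to 291 CPM in the knockout-labelled libraries and 102 to 162 CPM in the wild-type-labelled libraries, and the 2 listed skeletal muscle markers in the table to 3.33 to 3.84 CPM and 0.146 to 0.835 CPM in those groups. The 5 neural markers summed to 259 to 350 CPM in the knockout-labelled libraries and 201 to 343 CPM in the wild-type-labelled libraries. Their single levels are not given here, so the sum does not tell which cells it came from. In these lists too, 0 markers in the table were at 0 in all 6 libraries. Their part in the results below was not tested. In RNA from whole cultures, fewer cells that make a transcript and less of it per cell cannot be told apart.

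Opposite-strand transcripts were mostly lower or not distinguishable between the genotypes. Of 34, all tested, 12 were lower and 1 was higher in the knockout-labelled libraries at a false discovery rate of 5%, and 21 did not pass. Over all 15039 genes tested, 60.9% passed, 30.7% higher and 30.2% lower, so the share of lower transcripts, 35.3%, is near the background and the share of higher ones, 2.94%, is below it. The median log2 fold change was -0.53 over the 34 and -0.04 over all tested genes. The 1328 other noncoding RNA genes tested, for comparison, had a median of -0.44, with 15.1% higher and 35.4% lower, and of the 3 tested transcripts named as antisense ("as") 2 were higher and 0 lower. Without wild-type replicate 3, 16 of the 34 transcripts were lower and 2 higher. Without Bloc1s6os and Rbm3os, which had under 30 counts in one group, 11 were lower and 1 higher. The libraries of the genotypes did not overlap for 18 of the 34, or 52.9%, against 67.3% of all tested genes, which were not matched to them in counts.

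The calls by summed counts were as follows. Of the 14 transcripts with at least 500 summed counts 8 passed, of the 14 with at least 150 but under 500 counts 4 passed, and of the 6 with fewer 1 passed. Over all tested genes 60.9% passed. Their shares in the same ranges of counts were not computed, so nothing particular to these transcripts can be read from the 3 counts. The standard error of the log2 fold change had a median of 0.35 over the transcripts and 0.11 over their partners. A transcript that did not pass is therefore not shown to be equal in the genotypes.

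**Figure D1:**
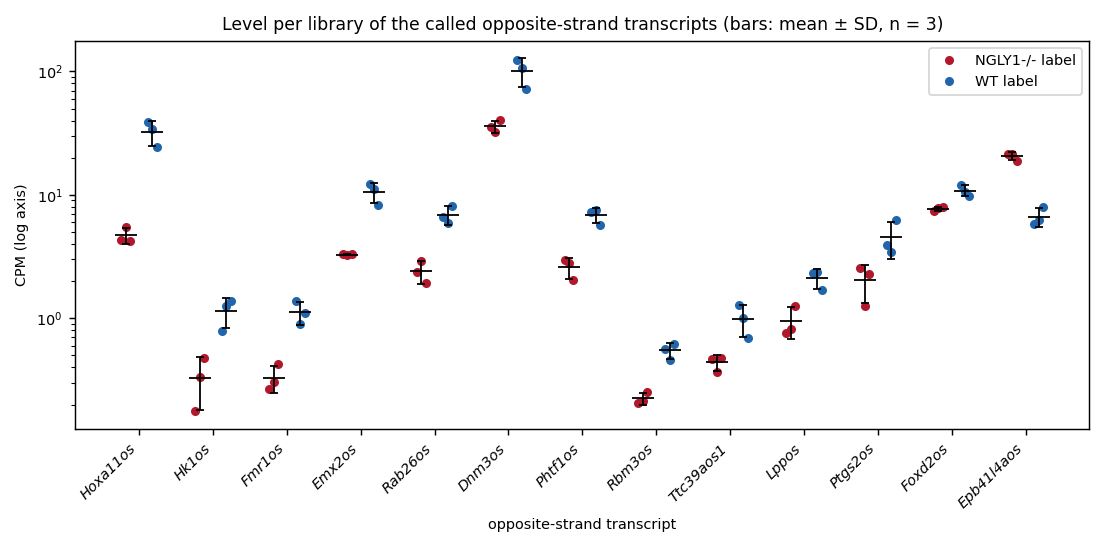
Levels of the 13 opposite-strand transcripts that passed the test, in CPM on a log axis, for each library labelled NGLY1-/- (red, left of each pair) and WT (blue, right). Bars give mean ± SD (n = 3). The libraries do not overlap for any of the 13, and Epb41l4aos is the only one higher in the NGLY1-/- libraries.

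Partner genes were called in both directions. Of the 33 distinct partners 32 were tested, and 13 were higher and 10 lower, 71.9% in all, with a median log2 fold change of 0.18. Over all tested genes 60.9% passed. Over the 12513 protein-coding genes tested 64.5% passed, 34.7% higher and 29.7% lower, with a median of 0.04. For so few partners, their share is near these backgrounds. Both members of a pair passed in the same direction in 7 of 33 pairs with both tested, and in opposite directions in 1. These shares are 21.2% and 3.03%. Of the 7 pairs, 2 have annotated ranges that do not overlap, Epb41l4aos and Fmr1os, and 6 remain without Rbm3os. Among 14614 pairs of tested genes that are neighbours in start order, the same counts gave 24.6% and 14.1%. These neighbouring pairs were not matched in read counts to the pairs studied here. The number of opposite pairs was 0 without wild-type replicate 1 or 2 and 5 without wild-type replicate 3, so no contrast with the neighbouring pairs can be read from it. In 16 pairs the partner passed and the transcript did not, with the partner higher in 12 of them and lower in 4. These pairs were picked by the transcript not passing. Where the transcript passed as lower, the partner passed as lower in 6 pairs and as higher in 1. The split of 12 and 4 is therefore no result about partners, of which 13 were higher and 10 lower in all. The log2 fold changes had the same sign in 22 of 33 pairs, or 66.7%, against 56.9% of the neighbouring pairs. Where annotated ranges overlap, the sign was the same in 6 of 6 nested pairs, 7 of 10 overlapping at their starts and 1 of 1 at their far ends. Where they do not, it was the same in 6 of 12 pairs starting back to back and 2 of 3 with facing far ends. The pair without a position differed in sign. Because the use of strand in counting is not given, no contrast with the neighbouring pairs can be read from the 66.7%.

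**Figure D2:**
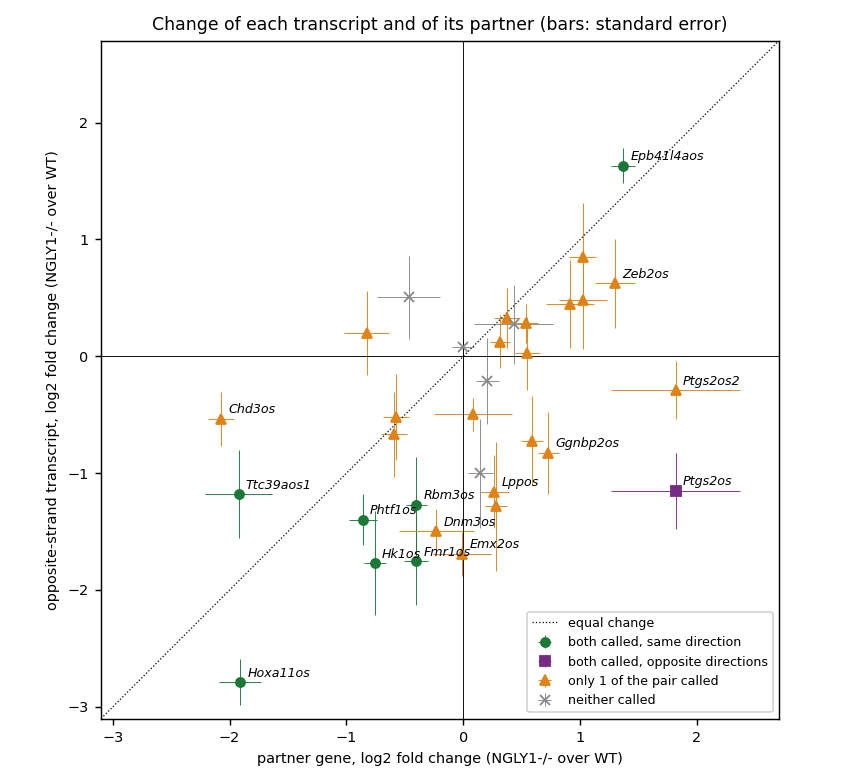
Log2 fold change of each opposite-strand transcript (vertical axis) against that of its partner (horizontal axis), NGLY1-/- over WT, with standard errors, for the 33 pairs with both tested. Colour and shape show which of the pair passed the test, and the dotted line marks equal change. Ptgs2os is the only pair with both called in opposite directions, and Hoxa11os lies farthest down.

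To ask whether a transcript and its partner changed unequally, the ratio of their counts was taken within each library, as log2 with 0.5 added to each count. This ratio needs no scaling between libraries. It is not a ratio of levels, since the transcripts differ in length. With 3 libraries against 3, the smallest p a two-sided exact permutation test allows is 0.1, so no single pair can pass 0.05. The ratios did not overlap between the genotypes in 17 of 34 pairs, each at that smallest p, with the ratio lower in the knockout-labelled libraries in 13 and higher in 4. That share is 50%, against 64.2% of the neighbouring gene pairs. Those pairs were not matched to these in counts, so no contrast can be read from the 2 shares. The 64.2% gives no background for the direction. The other noncoding RNA genes tested had a median log2 fold change of -0.44, and the protein-coding genes tested 0.04. Ptgs2os and Ptgs2os2, which have the same partner, are both among the 13. Without wild-type replicate 3, 23 pairs were separated, and with any other single library left out 18 to 22, since fewer libraries overlap less easily.

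**Figure D3:**
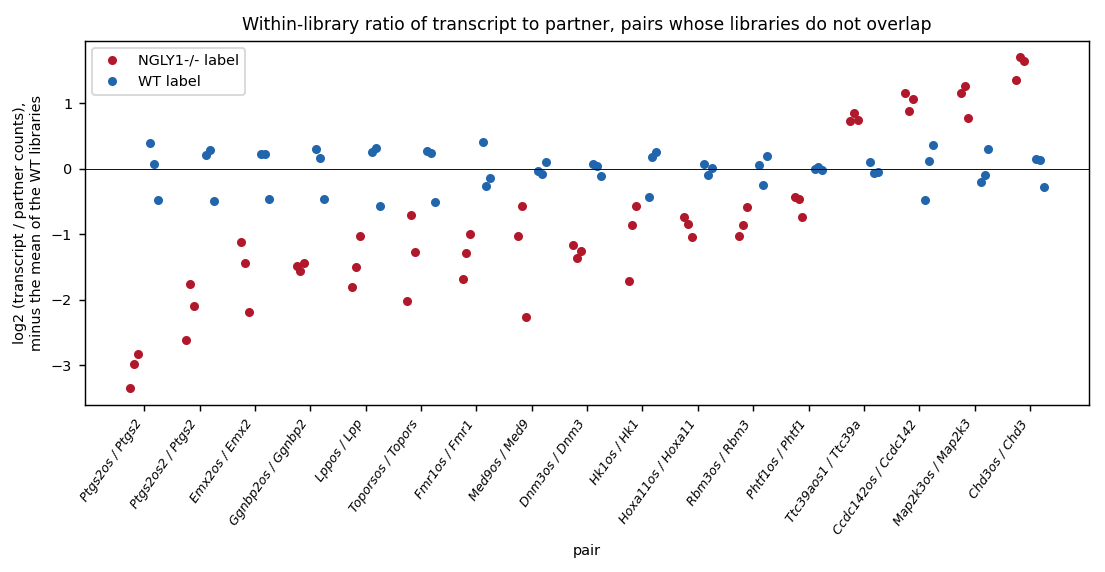
Log2 ratio of transcript to partner counts in each library for the 17 pairs whose libraries do not overlap, shown relative to the mean of the WT libraries, with NGLY1-/- libraries red and left, WT libraries blue and right. In 13 pairs the NGLY1-/- libraries lie below the WT libraries and in 4 pairs above them.

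By position in the RefSeq annotation of GRCm38.p6, the assembly whose primary sequence mm10 uses, 33 of the 34 transcripts could be placed, and all 33 lie on the strand opposite their partner. In 12 pairs the genes start back to back without overlap, their start sites 11 to 359 bases apart. In 10 pairs the first parts overlap head to head. In 6 pairs one gene lies inside the other, in 1 pair the far ends overlap, and in 4 pairs the far ends face each other without overlap. Ccdc142os has no position. Transcripts that passed were spread over these arrangements. Among the 12 back-to-back pairs 4 transcripts were lower, among the 10 head-to-head pairs 4, among the 6 nested pairs 3 and among the 4 facing pairs 1, with 1 higher. Of all tested genes 30.2% were lower, and of the other noncoding RNA genes tested 35.4%. With so few pairs in each, no difference between arrangements can be read from these counts. The symbols carried by the same gene IDs in RefSeq have changed in 2 cases: Chd3os is listed as Rnf227, and Toporsos as Smim27, a protein-coding gene.

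**Figure D4:**
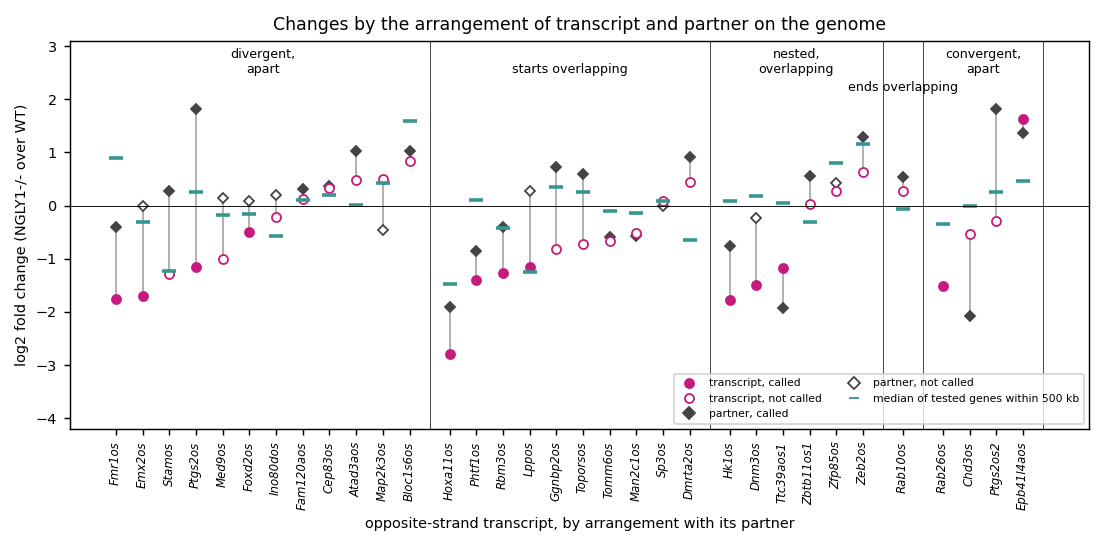
Log2 fold change (NGLY1-/- over WT) of each placed transcript (circles) and its partner (diamonds), grouped by their arrangement on the genome, with filled symbols for those that passed the test. Green bars give the median of all tested genes whose ranges lie within 500 kb of the pair, which is -1.47 beside Hoxa11os.

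The largest change was at the HoxA cluster. Hoxa11os (gene ID 15397; chr6:52245243-52249769, plus strand) runs away from Hoxa11 (chr6:52242105-52245810, minus strand), a homeobox gene that patterns the limb and the reproductive tract, and their first 568 bases overlap. Hoxa11os had 4.33, 5.48 and 4.26 CPM in the knockout-labelled libraries against 38.9, 33.9 and 24.2 CPM in the wild-type-labelled libraries. It was 6.90-fold lower (log2 fold change -2.79, standard error 0.19, adjusted p = 2.04e-06 in edgeR's quasi-likelihood test). Hoxa11 had 14.6, 19.9 and 17.7 CPM in the knockout-labelled libraries against 74.4, 72.9 and 48.7 CPM in the wild-type-labelled libraries, 3.76-fold lower (adjusted p = 1.96e-05). The groups overlapped for neither gene, and wild-type replicate 3 was the lowest of its group for both. The log2 count ratio was -1.75, -1.86 and -2.05 in the knockout-labelled libraries and -0.94, -1.11 and -1.01 in the wild-type-labelled libraries, lower in every knockout-labelled library. Of 17 other genes tested within 500 kb, 14 were lower and 0 higher, with a median log2 fold change of -1.47. The start of Hoxa11os is shown because it lies inside the annotated range of Hoxa11. In the 300 bases at chr6:52244993-52245292 (GRCm38.p6, plus strand, from RefSeq), capitals mark the first 50 bases of Hoxa11os, which also fall between its start and that of Hoxa11.
Hoxa11os: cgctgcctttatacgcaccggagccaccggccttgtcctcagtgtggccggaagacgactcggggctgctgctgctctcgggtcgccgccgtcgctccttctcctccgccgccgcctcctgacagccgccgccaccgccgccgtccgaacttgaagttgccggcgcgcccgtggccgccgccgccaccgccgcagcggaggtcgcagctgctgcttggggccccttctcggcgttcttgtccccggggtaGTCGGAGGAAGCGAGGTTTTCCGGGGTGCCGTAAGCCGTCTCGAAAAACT

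Dnm3os was the most abundant member by counts, 14901 in all. It lies inside Dnm3, a dynamin gene of membrane fission, on the other strand, and is the precursor of 2 microRNA hairpins, Mir199a-2 and Mir214. The transcript (chr1:162217623-162225550, plus strand) had 35.6, 32.0 and 40.2 CPM in the knockout-labelled libraries against 124, 107 and 72.6 CPM in the wild-type-labelled libraries. It was 2.82-fold lower (log2 fold change -1.50, standard error 0.19, adjusted p = 0.000122 in edgeR's quasi-likelihood test). Dnm3 itself stayed near 1 CPM: 0.825, 0.853 and 0.986 CPM in the knockout-labelled libraries and 1.23, 1.08 and 0.804 CPM in the wild-type-labelled libraries (log2 fold change -0.23, adjusted p = 0.552). The levels of Dnm3 overlapped, and those of Dnm3os did not. The log2 count ratio was 1.26 lower in the knockout-labelled libraries. The 5 other genes tested within 500 kb had a median log2 fold change of 0.18. Mature microRNAs were not analysed here. Their sequences are given because this precursor is the largest source of reads among the members, with the seed (bases 2 to 8), by which a microRNA pairs with its targets, in capitals. All 4 come from RefSeq and differ in their seeds.
miR-199a-5p (chr1:162217844-162217866, plus strand): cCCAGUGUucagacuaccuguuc
miR-199a-3p (chr1:162217883-162217904, plus strand): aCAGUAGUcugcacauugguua
miR-214-5p (chr1:162223397-162223418, plus strand): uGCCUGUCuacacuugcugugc
miR-214-3p (chr1:162223438-162223459, plus strand): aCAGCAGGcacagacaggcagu

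Emx2os and Emx2 start back to back 55 bases apart on chromosome 19, and only the transcript passed the test. Emx2 encodes a homeobox factor of the urogenital tract and cerebral cortex. Emx2os (chr19:59425104-59458635, minus strand) had 3.30, 3.23 and 3.30 CPM in the knockout-labelled libraries against 12.2, 11.1 and 8.30 CPM in the wild-type-labelled libraries, 3.23-fold lower (log2 fold change -1.69, standard error 0.19, adjusted p = 3.47e-05 in edgeR's quasi-likelihood test). Emx2 had 8.75, 10.6 and 18.3 CPM in the knockout-labelled libraries and 12.7, 11.5 and 13.8 CPM in the wild-type-labelled libraries (log2 fold change -0.01, adjusted p = 0.971). The transcript's libraries were separated while those of Emx2 overlapped, with knockout replicate 3 the highest of all 6. The log2 count ratio was -1.40, -1.71 and -2.47 in the knockout-labelled libraries and -0.06, -0.05 and -0.73 in the wild-type-labelled libraries. Foxd2os, which starts 359 bases from the forkhead gene Foxd2, was also lower, with 7.34, 7.83 and 7.92 CPM in the knockout-labelled libraries against 12, 10.6 and 9.83 CPM in the wild-type-labelled libraries. This 1.41-fold difference (adjusted p = 0.0121) was lost without wild-type replicate 1 (adjusted p = 0.0563). Foxd2 stayed between 0.761 and 1.30 CPM in all 6 libraries (log2 fold change 0.08, adjusted p = 0.849).

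At Ptgs2, which encodes cyclooxygenase 2, the inducible enzyme of prostaglandin synthesis, transcript and gene went opposite ways. Ptgs2os (chr1:150074873-150099874, minus strand) starts 157 bases from Ptgs2 (chr1:150100031-150108234, plus strand). It had 2.56, 1.25 and 2.28 CPM in the knockout-labelled libraries against 3.93, 3.44 and 6.25 CPM in the wild-type-labelled libraries, 2.22-fold lower (log2 fold change -1.15, standard error 0.33, adjusted p = 0.0116 in edgeR's quasi-likelihood test). Ptgs2 had 304, 116 and 189 CPM in the knockout-labelled libraries against 34.7, 37.8 and 101 CPM in the wild-type-labelled libraries, 3.53-fold higher (log2 fold change 1.82, standard error 0.55, adjusted p = 0.0303). Both separated the genotypes, but the levels of Ptgs2 varied widely within each. Its call was lost without wild-type replicate 1 (adjusted p = 0.134), without wild-type replicate 2 (0.0822), without both libraries numbered 3 (0.0851) and with no low-count filter (0.0941). The log2 count ratio of Ptgs2os to Ptgs2 was -6.88, -6.52 and -6.36 in the knockout-labelled libraries and -3.14, -3.45 and -4.01 in the wild-type-labelled libraries, a difference of -3.06, the largest of the 34 pairs. Ptgs2os2, known as lincRNA-Cox2, an inducible RNA of stimulated macrophages, lies beyond the far end of Ptgs2, its start 64917 bases from that of Ptgs2. It had 6.28, 4.33 and 5.61 CPM in the knockout-labelled libraries and 5.06, 5.83 and 9.03 CPM in the wild-type-labelled libraries, which overlap (log2 fold change -0.29, adjusted p = 0.327). Both Ptgs2os and Ptgs2os2 are set against the same partner, so these are not independent pairs.

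Fmr1os and Fmr1 both fell. Fmr1 on chromosome X encodes an RNA-binding regulator of translation. Fmr1os (chrX:68667514-68678399, minus strand), which starts 137 bases from it, had 0.265, 0.305 and 0.423 CPM in the knockout-labelled libraries against 1.38, 0.898 and 1.10 CPM in the wild-type-labelled libraries, 3.37-fold lower (log2 fold change -1.75, standard error 0.38, adjusted p = 0.0026 in edgeR's quasi-likelihood test). Fmr1 had 188, 163 and 183 CPM in the knockout-labelled libraries against 219, 229 and 258 CPM in the wild-type-labelled libraries, 1.32-fold lower (adjusted p = 0.00581). Both were separated, and the ratio was separated too, with a difference of -1.32 on the log2 scale. Only 1 other gene was tested within 500 kb, at a log2 fold change of 0.89, and it did not pass.

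The sequences between the annotated starts are shown for 3 back-to-back pairs. They are those of Ptgs2, where the directions differed, Emx2, where the transcript alone was lower, and Fmr1, where both were lower. Whether the genes of a pair share a promoter was not tested. Each sequence is the 300-base RefSeq window of GRCm38.p6 around the start of the named partner. It is on the partner's own strand, which is the plus strand in all 3. Capitals mark the bases from the start of the opposite-strand transcript to the start of the partner. For Fmr1 the window is drawn around a start 142 bases from that of Fmr1os.
Ptgs2 (chr1:150099781-150100080): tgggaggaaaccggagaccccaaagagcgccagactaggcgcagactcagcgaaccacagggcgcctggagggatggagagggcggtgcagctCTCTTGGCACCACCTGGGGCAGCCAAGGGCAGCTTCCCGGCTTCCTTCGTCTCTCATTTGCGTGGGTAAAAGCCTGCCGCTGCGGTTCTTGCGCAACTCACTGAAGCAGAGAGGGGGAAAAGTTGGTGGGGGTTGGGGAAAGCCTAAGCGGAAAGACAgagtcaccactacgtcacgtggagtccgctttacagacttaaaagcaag
Emx2 (chr19:59458440-59458739): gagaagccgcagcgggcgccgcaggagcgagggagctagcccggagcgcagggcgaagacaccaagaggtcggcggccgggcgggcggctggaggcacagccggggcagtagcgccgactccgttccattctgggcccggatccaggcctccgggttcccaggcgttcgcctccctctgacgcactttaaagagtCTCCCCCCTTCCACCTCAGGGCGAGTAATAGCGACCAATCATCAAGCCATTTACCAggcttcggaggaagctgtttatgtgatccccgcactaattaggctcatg
Fmr1 (chrX:68678291-68678590): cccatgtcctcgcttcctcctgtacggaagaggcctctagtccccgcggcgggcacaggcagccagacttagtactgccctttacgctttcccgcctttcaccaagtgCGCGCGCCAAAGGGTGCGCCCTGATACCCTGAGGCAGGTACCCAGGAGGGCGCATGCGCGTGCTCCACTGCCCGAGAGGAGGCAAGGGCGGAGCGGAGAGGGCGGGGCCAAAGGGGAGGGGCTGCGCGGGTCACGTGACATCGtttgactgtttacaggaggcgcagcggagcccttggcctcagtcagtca

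The windows of Ptgs2, Emx2 and Fmr1 have a GC content of 59.3%, 64.3% and 65.7%, against a median of 52.7% over the first-listed windows of 27025 genes. The letters CACGTG, searched on both strands, are in the windows of Ptgs2 and Fmr1 and in 7.24% of all windows. The letters GGGCGG are in all 3 windows and in 35.9% of all windows, CCAAT is in that of Emx2 and in 37.9% of all, and TATAAA is in none of the 3 and in 14.2% of all. A match is only a description of the letters.

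Epb41l4aos was the only transcript that passed as higher. It lies on chromosome 18 beyond the far end of Epb41l4a, which encodes a band 4.1 family protein of the membrane skeleton, and its human counterpart hosts a small nucleolar RNA. It had 21.6, 21.3 and 18.8 CPM in the knockout-labelled libraries against 5.82, 6.21 and 7.93 CPM in the wild-type-labelled libraries, 3.1-fold higher (log2 fold change 1.63, standard error 0.15, adjusted p = 1.04e-05 in edgeR's quasi-likelihood test). Epb41l4a rose with it, to 75.7, 75.3 and 82.3 CPM in the knockout-labelled libraries, against 28.1, 28.7 and 33.7 CPM in the wild-type-labelled libraries, 2.58-fold higher (adjusted p = 3.12e-06). The libraries of both were separated. The log2 count ratios of the genotypes overlapped, differing by 0.26, and the 6 other genes tested within 500 kb had a median log2 fold change of 0.47.

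Among pairs that overlap head to head, Phtf1os and Rbm3os were lower together with their partners. Phtf1os had 2.95, 2.80 and 2.03 CPM in the knockout-labelled libraries against 7.20, 7.52 and 5.74 CPM in the wild-type-labelled libraries, 2.64-fold lower (adjusted p = 0.000317 in edgeR's quasi-likelihood test). Phtf1, a putative homeodomain factor gene, was 1.82-fold lower (adjusted p = 0.000167), with 28.8 to 33.7 CPM in the knockout-labelled libraries and 49.3 to 62.8 CPM in the wild-type-labelled libraries. Of 9 other genes tested within 500 kb of Phtf1os and Phtf1, 2 were higher and 1 lower, with a median log2 fold change of 0.10. Rbm3os, the fainter of the pair, was at 7, 7 and 9 counts in knockout-labelled against 23, 18 and 17 in wild-type-labelled libraries, 2.41-fold lower (adjusted p = 0.0203). Its counts came mostly from the wild-type-labelled libraries, 58 of 81, and the call was lost with no low-count filter, in DESeq2 and without any one of 4 libraries, knockout replicates 1 to 3 and wild-type replicate 1 (adjusted p = 0.0515 to 0.0772 over these 6). Rbm3, a cold-inducible RNA-binding protein gene, was 1.32-fold lower (adjusted p = 0.00306), and of 22 other tested genes within 500 kb on chromosome X 14 were lower and 0 higher.

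In other head-to-head pairs 1 of the 2 passed. Lppos had 0.766, 0.822 and 1.27 CPM in the knockout-labelled libraries against 2.33, 2.36 and 1.68 CPM in the wild-type-labelled libraries, 2.23-fold lower (adjusted p = 0.00894 in edgeR's quasi-likelihood test). Its partner Lpp, which encodes a focal adhesion protein, stood at 0.27 on the log2 scale (adjusted p = 0.0872), and passed as higher without wild-type replicate 3 (adjusted p = 0.00102) and with no low-count filter (0.0349). The 4 other genes tested near Lpp had a median of -1.25. Ggnbp2os had 0.678, 0.548 and 0.648 CPM in the knockout-labelled libraries and 1.30, 1.23 and 0.768 CPM in the wild-type-labelled libraries, which do not overlap although the test was not passed (log2 fold change -0.82, adjusted p = 0.0643, and 0.0421 with library totals only). Ggnbp2, a zinc finger protein gene, was 1.65-fold higher (adjusted p = 7.65e-05), and the log2 count ratio of the pair was 1.5 lower in the knockout-labelled libraries. Toporsos stood at -0.72 on the log2 scale (adjusted p = 0.123), while Topors, which encodes a ubiquitin and SUMO ligase, was 1.5-fold higher (adjusted p = 0.00046). Without wild-type replicate 3, Lppos, Ggnbp2os, Toporsos, Stamos and Ptgs2os each passed as lower while their partners passed as higher, 5 opposite pairs in place of 1.

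In 4 further head-to-head pairs the transcript did not pass. Man2c1 encodes the cytosolic mannosidase that trims free glycans of the kind NGLY1 releases. It was 1.49-fold lower (adjusted p = 0.00107), with 24.7, 21.3 and 20.8 CPM in the knockout-labelled libraries against 34.0, 32.9 and 32.6 CPM in the wild-type-labelled libraries. Man2c1os stood at -0.52 on the log2 scale (adjusted p = 0.242), and the count ratio of the pair differed by 0.06 with overlapping libraries. Tomm6, a subunit of the mitochondrial import pore, was 1.51-fold lower (adjusted p = 0.00127), and Tomm6os stood at -0.67 on the log2 scale (adjusted p = 0.135). Dmrta2, a developmental transcription factor gene, was 1.88-fold higher, and Dmrta2os was at 0.45 (adjusted p = 0.324). Sp3, which encodes a GC-box binding factor, and Sp3os were at 0.00 and 0.08 on the log2 scale (adjusted p = 0.996 and 0.833).

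Of the pairs in which one gene lies inside the other, Hk1os and Ttc39aos1 fell with their partners. Hk1os had 0.177, 0.335 and 0.479 CPM in the knockout-labelled libraries against 0.786, 1.26 and 1.39 CPM in the wild-type-labelled libraries, 3.41-fold lower (adjusted p = 0.00598 in edgeR's quasi-likelihood test). Hk1, the hexokinase gene around it, was 1.69-fold lower (adjusted p = 8.57e-05). Near this pair, 12 other genes tested within 500 kb had a median log2 fold change of 0.08, with 3 higher and 3 lower. Ttc39aos1 had 0.472, 0.366 and 0.479 CPM in the knockout-labelled libraries against 1.28, 1.0 and 0.695 CPM in the wild-type-labelled libraries, 2.27-fold lower (adjusted p = 0.0202). Leaving out a single library other than wild-type replicate 3 ended that call (adjusted p = 0.0524 to 0.0926). Ttc39a was 3.79-fold lower (adjusted p = 0.000249), and the log2 count ratio of the pair was 0.78 higher, without overlap, in the knockout-labelled libraries. Near Ttc39a, 8 other genes tested within 500 kb had a median log2 fold change of 0.05, with 2 higher and 3 lower. Zeb2, a repressor of epithelial genes, was 2.46-fold higher (adjusted p = 0.000153) with 127, 92.5 and 118 CPM in the knockout-labelled libraries against 55, 46.4 and 35.7 CPM in the wild-type-labelled libraries. Zeb2os had 1.24, 0.761 and 1.07 CPM in the knockout-labelled libraries and 0.467, 0.898 and 0.621 CPM in the wild-type-labelled libraries, which overlap (log2 fold change 0.62, adjusted p = 0.178). Zbtb11os1 was at 0.03 and Zfp85os at 0.27 (adjusted p = 0.949 and 0.507). Their zinc finger partners Zbtb11 and Zfp85 were at 0.55, which passed, and 0.43, which did not (adjusted p = 0.0011 and 0.294).

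Among the other back-to-back pairs, the partner often passed and the transcript did not. Atad3a, encoding a mitochondrial ATPase, was 2.04-fold higher and Bloc1s6, a subunit of the complex that builds lysosome-related organelles, 2.03-fold higher (adjusted p = 0.00213 and 3.47e-05). Atad3aos and Bloc1s6os were at 0.48 and 0.85 on the log2 scale (adjusted p = 0.339 and 0.135), with no more than 20 counts in any library. Cep83, a centriole appendage gene, and Fam120a, an RNA-binding protein gene, were 1.30-fold and 1.24-fold higher (adjusted p = 0.0172 and 0.01). Scaled by library totals only, neither passed (adjusted p = 0.0666 and 0.0654), and Cep83 did not pass without knockout replicate 1 (0.0596). Cep83os and Fam120aos were at 0.33 and 0.13 (adjusted p = 0.29 and 0.652), and the count ratios of both pairs overlapped between the genotypes.

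The counts of Stamos were 8, 16 and 6 in knockout-labelled and 36, 37 and 8 in wild-type-labelled libraries (log2 fold change -1.28, adjusted p = 0.0675). In CPM the groups overlapped only between knockout replicate 2, at 0.487, and wild-type replicate 3, at 0.292. Without wild-type replicate 3 Stamos passed (log2 fold change -1.61, adjusted p = 0.00455). It also passed without knockout replicate 2 (adjusted p = 0.0431), with library totals only (0.0497) and with the replicate number as a block (0.0436). Stam, an endosomal sorting adaptor gene, was 1.21-fold higher (adjusted p = 0.0291), a call lost when scaled by library totals only (0.22) and without knockout replicate 1 (0.076) or 2 (0.0528). Map2k3os had 3.24, 2.92 and 3.52 CPM in the knockout-labelled libraries and 1.45, 1.67 and 3.80 CPM in the wild-type-labelled libraries (log2 fold change 0.51, adjusted p = 0.238). Without wild-type replicate 3 it was at 1.07 (adjusted p = 0.000665). Map2k3, a kinase gene of the p38 pathway, was at -0.47 (adjusted p = 0.163). It passed as lower with the replicate number as a block (adjusted p = 0.00684) and without both libraries numbered 3 (0.0125), where Map2k3os passed as higher (0.00407). The count ratio of the pair was separated and 1.07 higher on the log2 scale in the knockout-labelled libraries. Med9os and Ino80dos were at -1.0 and -0.21 (adjusted p = 0.0877 and 0.637). Med9, a Mediator subunit gene, and Ino80d, a chromatin remodelling subunit gene, were at 0.15 and 0.20 (adjusted p = 0.246 and 0.0894), and Ino80d passed as higher without wild-type replicate 3 (log2 fold change 0.23, adjusted p = 0.0499).

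At the pairs that meet or overlap at their far ends, 1 further transcript passed. Rab26os had 2.36, 2.92 and 1.92 CPM in the knockout-labelled libraries against 6.58, 5.88 and 8.19 CPM in the wild-type-labelled libraries, 2.86-fold lower (adjusted p = 0.000257 in edgeR's quasi-likelihood test). Its partner Rab26, a vesicle traffic GTPase gene, was not tested, its counts being 0, 0 and 1 in knockout-labelled and 0, 2 and 0 in wild-type-labelled libraries. Chd3, a subunit gene of the NuRD chromatin remodelling complex, was 4.21-fold lower (adjusted p = 3.3e-07), with 65.7, 56.7 and 68.2 CPM in the knockout-labelled libraries against 280, 283 and 238 CPM in the wild-type-labelled libraries. Chd3os had 3.01, 3.29 and 3.80 CPM in the knockout-labelled libraries and 5.55, 5.52 and 3.51 CPM in the wild-type-labelled libraries (log2 fold change -0.53, adjusted p = 0.0701), and passed as lower without wild-type replicate 3 (adjusted p = 0.00313) and with library totals only (0.0396). Rab10, a GTPase gene of membrane traffic, was 1.45-fold higher (adjusted p = 0.000814), and Rab10os stood at 0.28 on the log2 scale (adjusted p = 0.162), although its libraries did not overlap. Apart from these, at the pair without a position for the transcript, Ccdc142 was 1.78-fold lower (adjusted p = 0.00429), and Ccdc142os was at 0.20 (adjusted p = 0.651), with a separated count ratio that was 1.03 higher in the knockout-labelled libraries.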

How the data were processed

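Per the labels' protocols, Trizol was used for extraction and a kit that keeps strand for libraries from total RNA. Per the submitters' processing notes, STAR 2.5.1b and the mm10 build were used. For the counting tool, its annotation and its use of strand, the entry is: not given in the sources used here. The authors deposited whole-number counts per gene for 3 NGLY1-/- and 3 WT libraries. Counts were tested in R 4.3.3 with edgeR 4.0.16 (filterByExpr, TMM scaling, robust quasi-likelihood test, genotype as the only term, two-sided), with p-values adjusted by Benjamini-Hochberg over all 15039 tested genes and a threshold of 0.05. Standard errors were the absolute log2 fold change over the square root of F. Alternatives used DESeq2 1.42.0 and limma 3.58.1. The fit was tested on simulated data. The members, partners and lists were chosen with earlier results of these data known. The rule for named genes took the called members with the largest folds, the members with most counts, the called pairs and members whose partner is a developmental factor; beyond it, every member and partner is named. Positions and sequences come from RefSeq (GRCm38.p6), and strands RefSeq's promoter table lacks from GENCODE M21.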

Additional observations from a re-analysis of the deposited data

How the results depend on the processing

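No fold change changed sign among the named genes under any alternative in which the main value had passed. Pairs called in opposite directions numbered 2 with library totals only, 2 with the replicate block, 0 to 5 with 1 library left out, and 4 without both libraries numbered 3, a setting chosen after seeing the data. Pairs called in the same direction numbered 3 when at least 1 CPM in 3 libraries was required, and 2 when only pairs with non-overlapping ranges were kept. With 1 library left out they numbered 5 to 8. Transcripts called higher numbered 1 to 2 with 1 library left out and 2 without both libraries numbered 3. Transcripts called lower numbered 9 to 16 with 1 library left out. Other antisense-named transcripts called lower numbered 0 to 1 with 1 library left out and 1 without both libraries numbered 3. The other noncoding RNA genes gave 127 higher and 282 lower when at least 1 CPM in 3 libraries was required. Scaling by library totals only shifted the median over all 15039 genes by -0.12 (log2) and gave 3911 higher and 5318 lower genes. Requiring 1 CPM leaves fainter genes untested, and the 2 pairs with non-overlapping ranges are among the 7 of the main result. The cause of the other changes was not tested. Same-numbered libraries deviated from their group means with correlations of 0.096, 0.014 and 0.209, and differently numbered ones with -0.176 to 0.149. The value for the libraries numbered 3 was the highest. Whether the numbers pair the libraries cannot be told from these values. The replicate block gave 13 lower transcripts and 1 higher. Without the 2 members under 30 counts in one group, a setting also chosen after seeing the data, 11 transcripts were lower and 1 higher, with 6 pairs in the same direction and 1 in opposite directions. Whether low counts account for transcripts that did not pass was not tested.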
